A study of Mus musculus with 8 samples.

Results

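Zbtb16 and 9 other genes for transcription factors of granulosa cell differentiation and luteinisation were examined in mouse cumulus oocyte complexes, each an oocyte with its surrounding cumulus granulosa cells. The genes were chosen by name, with earlier results of these data known, as Zbtb16 with the Runx, Cebp, Gata, Foxo and Wt1 types of factor. Each gene was read by its probe set with the highest mean signal. Of the 10 genes, 9 had a named probe set among the 19938 genes measured, and each had 1. Runx2 was not analysed here.

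Control mice were PR+/-, with 1 copy of Pgr, the progesterone receptor gene, interrupted by a lacZ knock-in, and PRKO mice carried the knock-in on both copies. It disrupts both isoforms of the receptor, so the controls also carry 1 disrupted allele. All mice were 21 to 23 days old, received 5 IU of equine chorionic gonadotropin and then, 44 to 47 h later, 5 IU of human chorionic gonadotropin (hCG), and gave complexes 8 h after hCG. Each genotype had 4 whole-transcript arrays, each from complexes pooled from 3 animals, and values are log2 signals. The median signal of an array lay between 5.35 and 5.46 and the lower quartile between 3.92 and 4.00.

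The progesterone receptor is a nuclear receptor that granulosa cells of preovulatory follicles switch on after the gonadotropin surge, and mice without it do not ovulate. The surge ends the proliferative programme of the granulosa cell and starts that of the luteal cell. ZBTB16, also called PLZF, is a zinc finger repressor with a BTB domain that recruits histone deacetylase complexes. RUNX proteins bind DNA with the common partner CBFB, and in mice the surge raises Runx1 in granulosa cells. C/EBP beta acts downstream of the kinases ERK1 and ERK2 in the surge response of mouse granulosa cells. GATA4 and GATA6 drive gonadal steroid and inhibin genes, and FOXO1 and WT1 are factors of the growing follicle whose expression is lower in luteinising cells.

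Zbtb16, Cebpb and Wt1 were lower in PRKO complexes. Zbtb16 had 10.6% of the control signal, Cebpb 67.3% and Wt1 68.0%. Gata6 and Foxo1 had 75.5% and 77.2% and did not pass the test, and Runx1, Cebpa, Cebpd and Gata4 lay within a fold of 1.12. In limma, 3 of the 9 genes passed an adjusted p of 0.05, all lower, beside 2.92% of all genes. Over all genes 286 were higher (1.43%) and 296 lower (1.48%) or 166 and 303 with each array centred on its median and 173 and 303 after quantile normalization. The genotypes did not overlap for 4 of the 9, Zbtb16, Cebpb, Wt1 and Gata6, beside 10.2% of all genes (4.12% with PRKO lower and 6.08% with PRKO higher). With a fold of at least 1.5 as well, Zbtb16 alone passed, beside 1.39% of all genes. Since the genes were chosen with earlier results known, their shares beside those of all genes are a description. The median difference of the 9 genes was -0.37, beside 0.00 over all genes. In these bulk samples fewer cells of a type and less RNA per cell cannot be told apart.

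**Figure D1:**
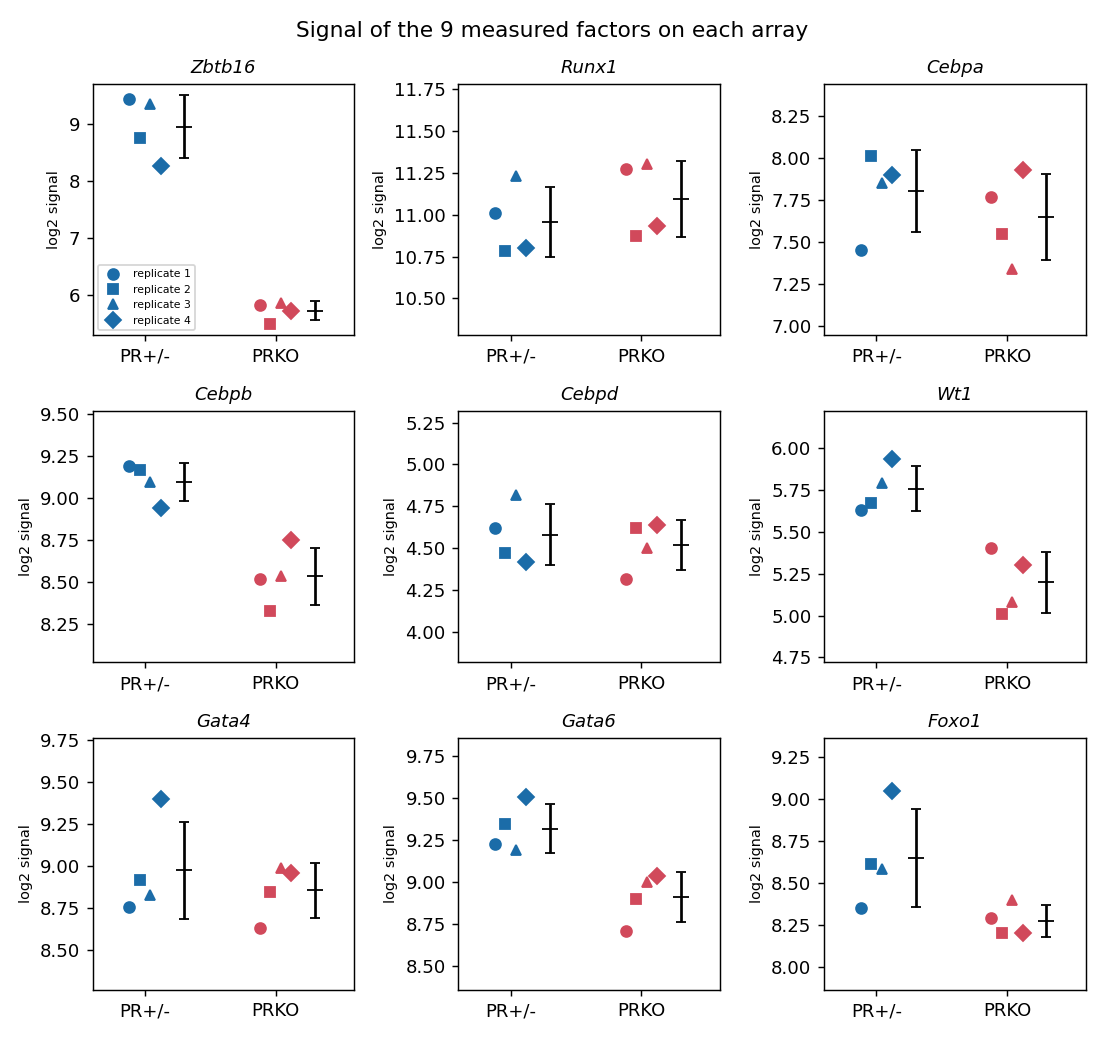
Log2 signal (y axis) of the 9 measured genes on each array, by genotype (x axis). Symbols mark the replicate and the black bars beside them the mean and SD of 4 arrays. Each axis spans its own range. Zbtb16, Cebpb, Wt1 and Gata6 show no overlap between genotypes, and the gap is widest for Zbtb16, at 2.40.

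**Figure D2:**
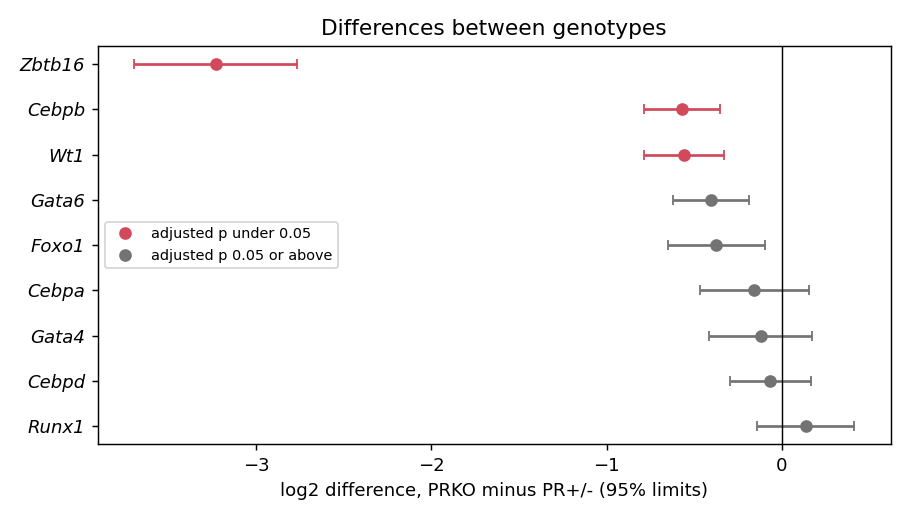
Log2 difference, PRKO minus PR+/- (x axis), with 95% limits from limma for the 9 genes. Red marks the 3 genes past an adjusted p of 0.05. Zbtb16 lies at -3.23, and the other 8 lie between -0.57 and 0.14.

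Pgr itself was at 6.09, 7.34, 6.54 and 7.15 on PR+/- arrays 1 to 4 and at 5.84, 5.23, 5.54 and 6.17 on PRKO arrays 1 to 4. The groups overlapped, and the difference was -1.09 ± 0.26 (SE, n = 4 arrays each, limma adjusted p = 0.0452). The position of the Pgr probes with respect to the knock-in is unknown here, which limits Pgr as a check of the labels. Leaving out any 1 of PR+/- replicates 2, 3 and 4 and PRKO replicates 1, 2 and 3 ended the Pgr call (adjusted p up to 0.130).

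Promoter sequence was at hand for 5 of the 10 genes, Cebpa, Cebpb, Foxo1, Runx1 and Runx2, in the RefSeq table of build GRCm38.p6. The 2 shown here are those of Cebpb, which fell, and of its relative Cebpa, which did not pass the test. Each line holds the 250 bases before the annotated start, 5′ to 3′ on the strand of the gene. Capitals mark exact matches, on either strand, to the motifs searched. The Cebpb window is chr2:167688665-167688914 and the Cebpa window chr7:35119043-35119292, both on the plus strand.
Cebpb: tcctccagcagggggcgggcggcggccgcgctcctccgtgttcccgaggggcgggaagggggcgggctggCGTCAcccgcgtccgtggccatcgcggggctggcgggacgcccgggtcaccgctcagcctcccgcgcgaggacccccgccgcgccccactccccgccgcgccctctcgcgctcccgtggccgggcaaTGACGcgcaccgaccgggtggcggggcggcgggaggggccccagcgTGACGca
Cebpa: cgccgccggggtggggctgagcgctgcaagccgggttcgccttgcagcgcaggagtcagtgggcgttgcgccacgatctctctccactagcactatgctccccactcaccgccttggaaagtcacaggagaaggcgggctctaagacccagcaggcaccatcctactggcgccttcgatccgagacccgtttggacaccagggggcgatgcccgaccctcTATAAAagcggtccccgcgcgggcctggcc

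The Cebpb window held 81.6% G and C, and the Cebpa window 66.4%, beside a median of 52.4% over all 32851 promoters of the table. In Cebpb the capitals are the core of the cyclic AMP response element, TGACG, beginning 180, 53 and 7 bases before the start, the first of them on the opposite strand. Of all promoters, 20.8% held that core within 300 bases, from 250 before to 50 after the start. In Cebpa the capitals are a TATA motif, TATAAA, 30 bases before the start, which 13.6% of promoters held. The short form of the progesterone response element, TGTTCT (19.0% of promoters), was in none of the 6 windows of these 5 genes, Runx1 having 2 windows. Neither was its full palindrome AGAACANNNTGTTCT, which 3 of all promoters held. No match says only that these letters are not in these windows.

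The motifs were searched on both strands. The RUNX motif TGTGGT was in 16.8% of all promoters, and the C/EBP motif TTGCNNAA in 10.8%. For GATA factors AGATAA was searched together with its variant TGATAA, and 18.6% held either. The FoxO motif TGTTTAC was in 3.65%. The AP-1 motif TGAGTCA was searched together with its reverse complement, TGACTCA, and 5.2% held either. The distal Runx1 window held RUNX matches 28 and 36 bases past the start. The Runx2 window held them 80 bases before and 23 and 31 past it, and a C/EBP match 48 bases before it. The Foxo1 window and the proximal Runx1 window held no match to any motif, and in Cebpb a TATA match lay 21 bases past the start.

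Zbtb16 (chromosome 9, 48651797 to 48836225 in GRCm38.p6) was at 9.44, 8.75, 9.35 and 8.26 on PR+/- arrays 1 to 4. On PRKO arrays 1 to 4 it was at 5.82, 5.49, 5.86 and 5.71. All PRKO arrays lay at least 2.40 below the lowest PR+/- array and just above the array medians. With the background of the arrays unknown, the fold may be a lower bound. The difference was -3.23 ± 0.21 (SE, n = 4 arrays each), with 95% limits of -3.70 and -2.76, 9.39-fold in size (limma adjusted p = 1.92e-05). Of all 19938 genes only Zbtb16 itself had a difference of that size in either direction. The SD was 0.55 in PR+/- and 0.17 in PRKO, a difference in spread that was not tested, and PR+/- replicate 4 was the lowest control.

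Zbtb16 and Pgr lie on the same chromosome, 39.68 Mb apart. The 13 measured genes within 500 kb of Zbtb16 had differences from -0.22 (Htr3b, a serotonin receptor subunit) to 0.21 (Rexo2, an oligoribonuclease), and 0 passed the limma test. Around all 9 genes, 1 of 92 such neighbours was higher and 2 were lower, together near the share of 2.92% of all genes. They were Pepd beside Cebpa (0.62), Wdfy2 beside Gata4 (-0.41) and Maml3 beside Foxo1 (-1.34). The Wdfy2 call ended without any 1 of PR+/- replicates 1, 2 and 3 and PRKO replicates 1, 2 and 3 (adjusted p up to 0.130). These neighbours and this window were chosen after the values were seen.

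The genes whose profile over the 8 arrays was nearest to that of Zbtb16 were Hsd17b11, Slc7a11, Epas1, Gstm1 and Tmem100. Likeness was the root mean square distance between log2 profiles, each taken from its own mean, and it ran from 0.28 for Hsd17b11, a lipid droplet dehydrogenase, to 0.60 for Tmem100. Slc7a11, a cystine transporter, lay at 0.41, Epas1, a hypoxia-inducible factor subunit, at 0.48 and Gstm1, a glutathione transferase, at 0.59. All 5 fell, by folds of 4.63 to 7.96. Picked for likeness to Zbtb16 on these same 8 arrays, they had to share a large fall. Shared highs and lows among the arrays were favoured too. On PR+/- replicate 4 each of Zbtb16, Hsd17b11, Slc7a11, Epas1 and Gstm1 had its lowest control value, while Tmem100 was lowest on PR+/- replicate 3.

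**Figure D3:**
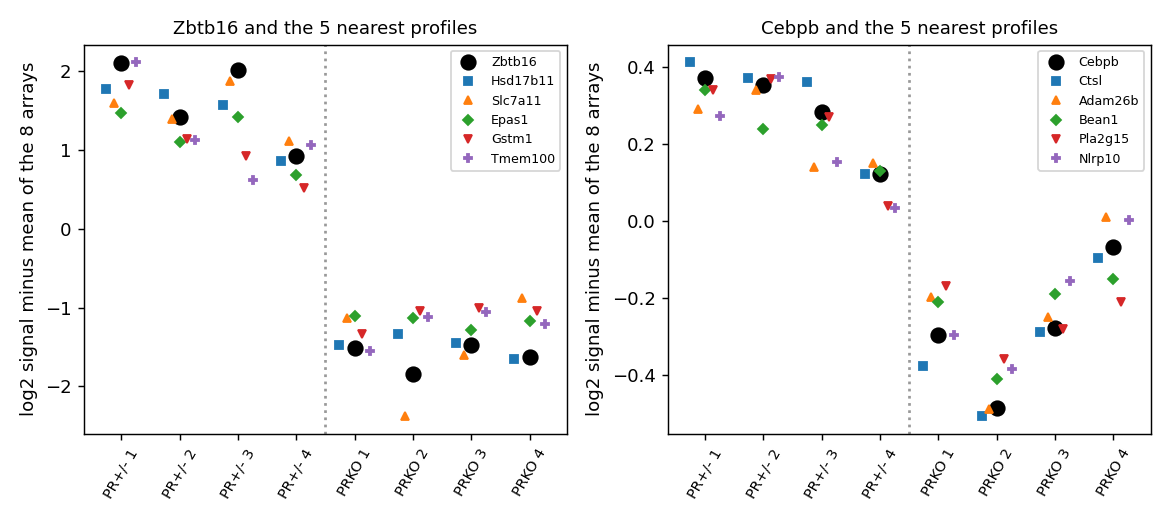
Log2 signal minus the mean of the 8 arrays (y axis) on each array (x axis, replicate numbers have no order) for Zbtb16 and Cebpb, black, and the 5 nearest profiles of each, in colour. Within controls, Zbtb16 and 4 of its 5 neighbours are lowest on replicate 4, and Cebpb and Ctsl share a distance of 0.044.

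Of 17 other BTB zinc finger genes measured, 0 passed the limma test, and their differences ran no further than 0.28 for Zbtb33 and -0.21 for Zbtb10. Of 11 measured partners and corepressors of the protein, 0 passed. The largest differences there were -0.22 for Agtr2, the angiotensin receptor that binds ZBTB16, and 0.21 for Atp6ap2, the prorenin receptor. Of 11 genes tied to ZBTB16 in other tissues 1 passed, Ddit4, an inhibitor of mTOR complex 1 signalling. Ddit4 was at 9.91, 9.81, 9.62 and 9.77 in PR+/- and at 8.27, 8.61, 8.95 and 8.90 in PRKO. It fell by 1.10 ± 0.14 (SE), 2.14-fold (limma adjusted p = 0.00117). Kit, the receptor of kit ligand (-0.41 ± 0.14), and Myc (0.40 ± 0.12) did not pass, although Myc did without PR+/- replicate 2 (adjusted p = 0.0293).

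Runx1 was near its control level. It was at 11.01, 10.78, 11.23 and 10.80 in PR+/- and at 11.27, 10.87, 11.30 and 10.93 in PRKO, so the groups overlapped. The difference of 0.14 ± 0.13 (SE, limma adjusted p = 0.663) had 95% limits of -0.14 and 0.42. It ran from 0.07 without PRKO replicate 3 to 0.23 without PR+/- replicate 3, and was 0.06 with the theca and stroma marker mean as a covariate. Cbfb, the common partner of the RUNX proteins, was at 0.20 ± 0.09 (adjusted p = 0.279) and Runx3 at -0.06 ± 0.14 (0.870), both named after their values were seen. Without PRKO replicate 1 Runx3 was at 0.04. For both Runx1 and Zbtb16, replicates 1 and 3 lay above and replicates 2 and 4 below their genotype mean, in both genotypes. Zbtb16 on PRKO replicate 4 did so by only -0.013. This split was seen after the fact and was not particular to these genes. Over all probe sets tested, deviations of arrays on the same side of it correlated positively between genotypes (0.0108 to 0.2165). Those of arrays on opposite sides correlated negatively (-0.2107 to -0.0109). Such deviations cancel over the arrays of a genotype, so correlations of both signs had to occur.

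Among 11 RUNX partners and cofactors, 1 rose and 2 fell, all 3 from the Groucho family of corepressors. Tle1 was at 6.82, 6.77, 6.78 and 6.56 in PR+/- and at 6.11, 5.98, 5.83 and 6.30 in PRKO, a difference of -0.68 ± 0.11 (SE, limma adjusted p = 0.00481). Tle3 fell by 0.53 ± 0.11 (0.0266), Tle2 rose by 0.56 ± 0.12 (0.0259), and Tle4 was at -0.31 ± 0.12 (0.220). The genotypes did not overlap for Tle1, Tle2 and Tle3. Cbfa2t3, a corepressor of the ETO family, was at -0.47 ± 0.13 (0.0937), or -0.23 (0.395) with its probe sets averaged. The Tle2 call ended without PR+/- replicate 1, 2 or 3 or PRKO replicate 2 (adjusted p up to 0.0824). The Tle3 call ended without PR+/- replicate 1, 2 or 3 or PRKO replicate 2, 3 or 4 (up to 0.0869), and with the theca and stroma marker mean as a covariate (0.0641).

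Of 12 granulosa genes tied to RUNX factors or CBFB, 3 fell and 0 rose, while 9 had positive differences and the median was 0.14. The metal-binding genes Mt2 and Mt1 fell by 1.52 ± 0.19 and 0.97 ± 0.14 (SE), with limma adjusted p of 0.00132 and 0.00315. Cd34, a sialomucin, was at 10.88, 10.53, 10.31 and 10.04 in PR+/- and at 8.69, 9.20, 8.83 and 9.28 in PRKO. It fell by 1.44 ± 0.17 (adjusted p = 0.000945), with no overlap. Timp1, a metalloprotease inhibitor (0.64 ± 0.16, 0.0564), and Akr1c18, the enzyme that inactivates progesterone (0.36 ± 0.37, 0.703), did not pass. Akr1c18 was at 7.26 on PR+/- replicate 4 and between 8.73 and 9.51 on the other 7 arrays.

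Cebpb (chromosome 2, 167688915 to 167690432) was at 9.19, 9.17, 9.10 and 8.94 in PR+/- and at 8.52, 8.33, 8.54 and 8.75 in PRKO. All PRKO arrays lay below all PR+/- arrays, by 0.19 at the nearest. The difference was -0.57 ± 0.10 (SE), 1.49-fold, with 95% limits of -0.79 and -0.35 (limma adjusted p = 0.00966). The call held without any 1 array, with adjusted p from 0.00700 to 0.0352, and ended without moderation (0.0968).

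Cebpa was at 7.45, 8.01, 7.85 and 7.90 in PR+/- and at 7.77, 7.55, 7.34 and 7.93 in PRKO, a difference of -0.16 ± 0.14 (SE, limma adjusted p = 0.654). Cebpd was at 4.62, 4.47, 4.82 and 4.42 in PR+/- and at 4.32, 4.62, 4.50 and 4.64 in PRKO, a difference of -0.07 ± 0.11 (0.818). Both genes overlapped between genotypes, and the signal of Cebpd lay below the array medians, where the background may hide a change. Without PR+/- replicate 3 the Cebpd difference was 0.01. Without PR+/- replicate 1 the Cebpa difference was -0.28, and without PRKO replicate 3 it was -0.06. The log2 value of Cebpb minus that of Cebpa on the same array was lower in PRKO by 0.41 (exact permutation test over 70 arrangements, p = 0.0857, adjusted 0.0857 over 3 pairs of relatives chosen after the values were seen). The log2 value of Cebpb minus that of Cebpd differed by -0.50, PRKO minus PR+/- (exact permutation p = 0.0286, adjusted 0.0429 over the same 3 pairs). Since Cebpd was so dim, no conclusion on the changes of Cebpb and Cebpd is drawn from it.

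The profiles nearest to Cebpb over the 8 arrays were those of Ctsl, Adam26b, Bean1, Pla2g15 and Nlrp10, at distances of 0.044 to 0.090. Ctsl, a lysosomal cysteine protease, was at 11.92, 11.88, 11.87 and 11.63 in PR+/- and at 11.13, 11.00, 11.22 and 11.41 in PRKO. The arrays of each genotype stood in the same order for Ctsl as for Cebpb, with PR+/- replicate 4 and PRKO replicate 2 lowest. Picking genes by likeness to Cebpb on these same arrays favours such a match and a fall. Ctsl fell by 0.64 (limma adjusted p = 0.00549), and Pla2g15, a lysosomal phospholipase, by 0.51 (0.0112). Adam26b lay at 2.16 to 2.99, below the lower quartile of every array.

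Of 7 other C/EBP genes, bZIP partners and Tribbles genes 0 passed the limma test, with the largest differences for Atf4 (0.24 ± 0.10) and Cebpe (0.23 ± 0.11). Among 10 measured luteal genes tied to C/EBP alpha and beta, 3 rose, 0 fell, and 9 had positive differences, with a median of 0.22. Ptgfr, the prostaglandin F receptor, rose by 0.43 ± 0.10 (SE, limma adjusted p = 0.0418), and Cyp11a1, the cholesterol side-chain cleavage enzyme, by 0.39 ± 0.09 (0.0324). Cdkn1b, a cell cycle inhibitor, rose by 0.33 ± 0.07 (0.0346). Akr1c18 and Sfrp4, a secreted Wnt modulator (0.22 ± 0.08, 0.179), did not pass. The genotypes did not overlap for Ptgfr, Cyp11a1 and Cdkn1b, but the calls were near the threshold. All 3 ended without 6 or 7 of the 8 arrays in turn, with adjusted p up to 0.126, 0.0923 and 0.104. They also ended with each array centred on its median, at 0.0592, 0.0642 and 0.0701.

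Gata6 (chromosome 18) was at 9.23, 9.35, 9.19 and 9.51 in PR+/- and at 8.71, 8.90, 9.00 and 9.04 in PRKO, without overlap. Its difference of -0.41 ± 0.10 (SE), or 1.32-fold, had 95% limits of -0.62 and -0.19 and just missed the threshold (limma adjusted p = 0.0536). It passed under 6 of 19 alternatives, among them the replicate block (0.0356), quantile normalization (0.0366) and array centring (0.0462). It did not pass without any 1 array (0.0669 to 0.130).

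Gata4 was at 8.76, 8.92, 8.83 and 9.40 in PR+/- and at 8.63, 8.85, 8.99 and 8.96 in PRKO. The groups overlapped, and the difference was -0.12 ± 0.14 (SE, limma adjusted p = 0.730), or 0.02 without PR+/- replicate 4. The log2 value of Gata6 minus that of Gata4 on the same array was 0.34 ± 0.16 in PR+/- and 0.06 ± 0.03 in PRKO (SD, n = 4), which says nothing of the levels of either gene. That value was lower in PRKO by 0.29, with no overlap (exact permutation p = 0.0286, the smallest possible, 0.0429 adjusted over the 3 pairs). Its adjusted value depends on the equal p-value of the Cebpb and Cebpd pair. Like the other pairs, Gata6 minus Gata4 was picked with the values known, so this is a description.

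Of 7 other GATA genes and friend of GATA cofactors 0 passed in limma, with Gata2 at -0.22 ± 0.09 and Gata1 at 0.20 ± 0.08. Of 10 measured gonadal genes tied to GATA4 and GATA6, 1 rose and 1 fell. Fshr, the follicle-stimulating hormone receptor, was at 8.64, 8.18, 8.07 and 8.02 in PR+/- and at 6.86, 7.35, 7.35 and 7.10 in PRKO, a drop of 1.06 ± 0.15 (SE, limma adjusted p = 0.00221). Cyp11a1 is the one that rose. Inhbb, the inhibin beta B subunit (-0.44 ± 0.32), and Hsd3b1 (0.29 ± 0.15) did not pass, at adjusted p of 0.570 and 0.392. Inhbb was at -0.07 without PR+/- replicate 4, -0.68 without PR+/- replicate 1 and -0.29 without PRKO replicate 1, and Hsd3b1 at 0.17 without PR+/- replicate 3. The spread of Inhbb was wide in controls, from 7.97 to 9.80, with the highest value on PR+/- replicate 4, as for Gata4 and Gata6.

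Foxo1 was at 8.35, 8.61, 8.58 and 9.05 in PR+/- and at 8.29, 8.20, 8.40 and 8.20 in PRKO. PRKO replicate 3 lay above PR+/- replicate 1, so the groups overlapped by 0.05. The difference was -0.37 ± 0.13 (SE), with 95% limits of -0.65 and -0.10 and a limma adjusted p of 0.164. It was -0.24 without PR+/- replicate 4, the highest control, and -0.47 without PR+/- replicate 1, the lowest.

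Among 13 measured genes, other FoxO factors, Foxl2, the deacetylase Sirt1 and the insulin receptor, adaptors and kinases upstream, 1 fell and 0 rose. Foxo3 was at 8.42, 8.15, 8.27 and 7.96 in PR+/- and at 7.78, 7.73, 7.70 and 7.59 in PRKO, without overlap. It fell by 0.50 ± 0.10 (SE, limma adjusted p = 0.0208). That call ended without PR+/- replicate 1 or 3 or PRKO replicate 2, 3 or 4 (up to 0.0706) and with the theca and stroma marker mean as a covariate (0.0669). Foxl2, a factor that maintains granulosa identity (-0.33 ± 0.11), and Sgk1, a kinase that phosphorylates FoxO proteins (0.24 ± 0.13), did not pass.

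Of 16 measured genes tied to FoxO factors 2 rose and 0 fell, with a median of 0.01. They were Cdkn1b and Sesn3, a sestrin (0.34 ± 0.08, SE, limma adjusted p = 0.0479), and the Sesn3 call ended without any 1 of the 8 arrays (up to 0.135). Pdk4, a kinase that inhibits pyruvate dehydrogenase (-0.43 ± 0.14), and Sod2, the mitochondrial superoxide dismutase (0.30 ± 0.08), did not pass, at adjusted p of 0.133 and 0.0645.

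Wt1 (chromosome 2, 105126529 to 105173614) was at 5.63, 5.67, 5.79 and 5.93 in PR+/- and at 5.40, 5.01, 5.08 and 5.30 in PRKO. All PRKO arrays lay below all PR+/- arrays, by 0.24 at the nearest, and below or near the array medians. The difference was -0.56 ± 0.11 (SE), or 1.47-fold, with 95% limits of -0.79 and -0.33 and a limma adjusted p of 0.0149. The call ended without PR+/- replicate 3 (0.0533) or PRKO replicate 2 (0.0509) or 3 (0.0587). It also ended with all probe sets tested (0.0646) and without moderation (0.122). Wt1 is also made by the ovarian surface epithelium. The mean of 8 markers of that layer was 5.25 to 5.41 in PR+/- and 5.31 to 5.55 in PRKO, and 0 of the 8 passed. The keratin gene Krt19 differed most, at 0.40 ± 0.15, or 0.26 without PRKO replicate 1, and Krt7 least, at 0.02 ± 0.08.

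Of 5 partners of the WT1 protein, Pawr, a pro-apoptotic WT1-binding protein, fell. It was at 9.71, 9.51, 9.52 and 9.24 in PR+/- and at 8.73, 8.78, 8.78 and 8.71 in PRKO, a drop of 0.74 ± 0.10 (SE) and 1.68-fold (limma adjusted p = 0.00153). Basp1, a corepressor of WT1 (0.30 ± 0.09), and Cited2 (-0.28 ± 0.09) did not pass. Of 13 genes tied to WT1, 0 passed in limma. The largest differences were those of Amhr2, the receptor of anti-Müllerian hormone (0.45 ± 0.13, adjusted p = 0.0937), which passed without PRKO replicate 1 (0.0481), and of Nr0b1 (-0.37 ± 0.14).

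Among 24 other transcription factors of granulosa cells and luteinisation, 2 rose and 0 fell. Nr4a1, an orphan nuclear receptor induced by the surge, was at 10.04, 10.72, 9.97 and 10.34 in PR+/- and at 10.74, 11.11, 10.93 and 11.04 in PRKO. It rose by 0.68 ± 0.15 (SE, limma adjusted p = 0.0324). Fosl2, an AP-1 subunit, rose by 0.64 ± 0.12 (0.0164). Neither overlapped between genotypes, although PR+/- replicate 2 of Nr4a1 lay just under the lowest PRKO array. The Nr4a1 call ended without PR+/- replicate 1 or 3 or PRKO replicate 2, 3 or 4 (up to 0.105), and the Fosl2 call without PR+/- replicate 2 or PRKO replicate 2 or 3 (up to 0.0632). Nrip1, a nuclear receptor corepressor (0.39 ± 0.12), and Nr0b1 did not pass.

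Over all these lists together, 16 of 148 distinct genes passed (10.8%, beside 2.92% of all genes), 7 higher and 9 lower, and the median difference was 0.02. Members and lists were chosen with earlier results of these data known, so the share is a description.

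**Figure D4:**
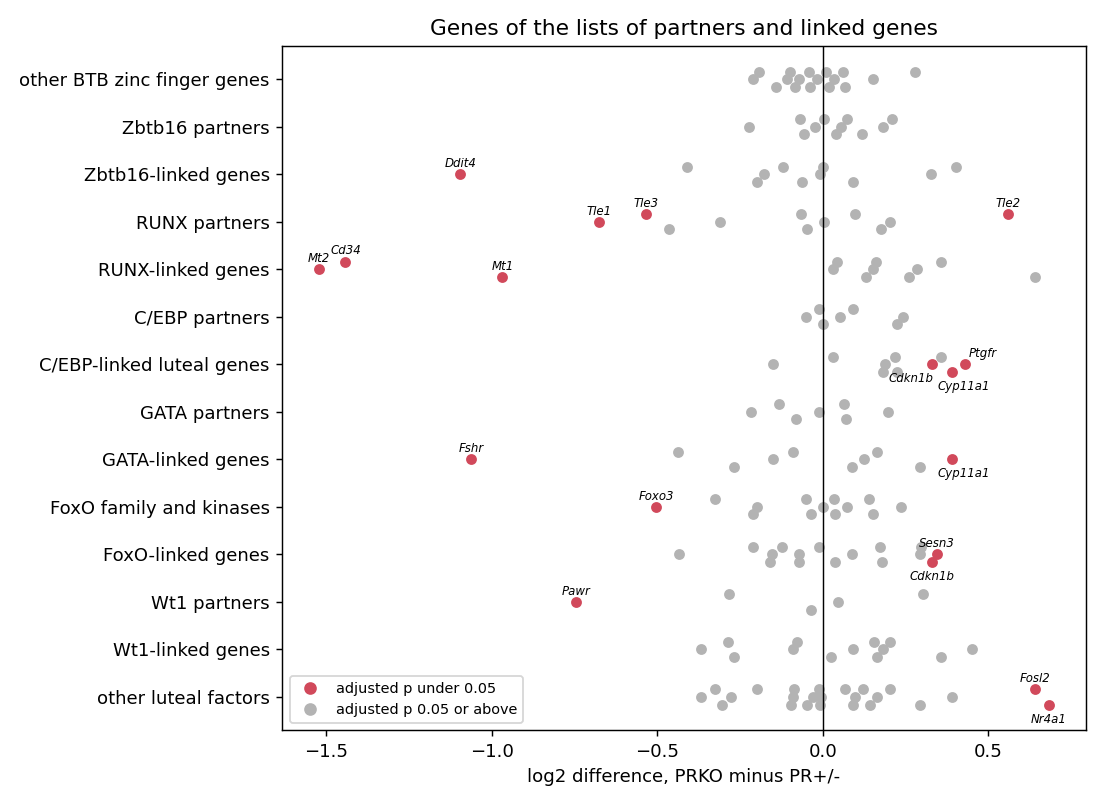
Log2 difference, PRKO minus PR+/- (x axis), of each measured gene of the 14 lists of partners and linked genes (y axis). Red points, with names, passed an adjusted p of 0.05, grey points did not, and some genes stand in several lists. The lists of other BTB genes, Zbtb16 partners, C/EBP partners, GATA partners and Wt1-linked genes hold no red point.

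Within controls, 1 array stood apart for several of the factors and for marker means, whose part in the results was not tested. PR+/- replicate 4 was the highest control for Gata4 (0.42 above the genotype mean), Foxo1 (0.40), Gata6 (0.19) and Wt1 (0.18), and the lowest for Zbtb16 (-0.69), Cebpb (-0.16) and Cebpd (-0.16). The same array was highest for the mean of 8 cumulus and granulosa markers (0.32 above) and of 14 oocyte markers (0.39 above). For the oocyte mean PR+/- replicate 1 lay nearly as far below (-0.38). PRKO replicate 4 was likewise the highest of its genotype for both means (0.20 and 0.34 above), but the factors followed only in part. Gata6 (0.13), Gata4 (0.10) and Wt1 (0.10) again lay above their genotype mean. Cebpb (0.22) and Cebpd (0.12) also lay above it, and Foxo1 (-0.075) and Zbtb16 (-0.013) below. Between genotypes the cumulus marker mean was 8.87 to 9.40 in PR+/- and 8.77 to 9.16 in PRKO, and the oocyte mean 6.25 to 7.02 and 6.30 to 6.90. Of those markers Fshr alone passed, with Inhba, the inhibin beta A subunit, at the smallest cumulus difference (0.12 ± 0.28). Kit had the largest oocyte difference and Dppa3 the smallest (0.01 ± 0.13). With the oocyte marker mean as a covariate the differences of Zbtb16, Cebpb, Wt1, Gata6 and Foxo1 were -3.29, -0.57, -0.53, -0.39 and -0.34.

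The theca and stroma marker mean over 9 genes was 5.82 to 6.16 in PR+/- and 5.87 to 6.45 in PRKO, 0.18 higher in PRKO, and 0 of the 9 passed, with Acta2 at 0.47 ± 0.20, or 0.30 without PRKO replicate 4, and Cyp17a1 at -0.08 ± 0.31. With that mean as a covariate Zbtb16, Cebpb and Wt1 passed, at -3.26, -0.60 and -0.68 (limma adjusted p = 0.000182, 0.0247 and 0.00344). Leukocytes express Runx1 and the C/EBP genes too. The mean of 10 leukocyte markers was 4.24 to 4.34 in PR+/- and 4.25 to 4.43 in PRKO, 4 of them had a mean over the arrays below the lowest array's lower quartile, and 0 passed, with Cd68 at 0.21 ± 0.12 and Cd3e at 0.01 ± 0.09. Of 7 endothelial markers Kdr, a VEGF receptor, alone passed (0.80 ± 0.15, adjusted p = 0.0126, a call that ended without PR+/- or PRKO replicate 3, up to 0.0512). Pecam1 was at 0.06 ± 0.10, and the list mean was 5.00 to 5.05 and 5.08 to 5.24.

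**Figure D5:**
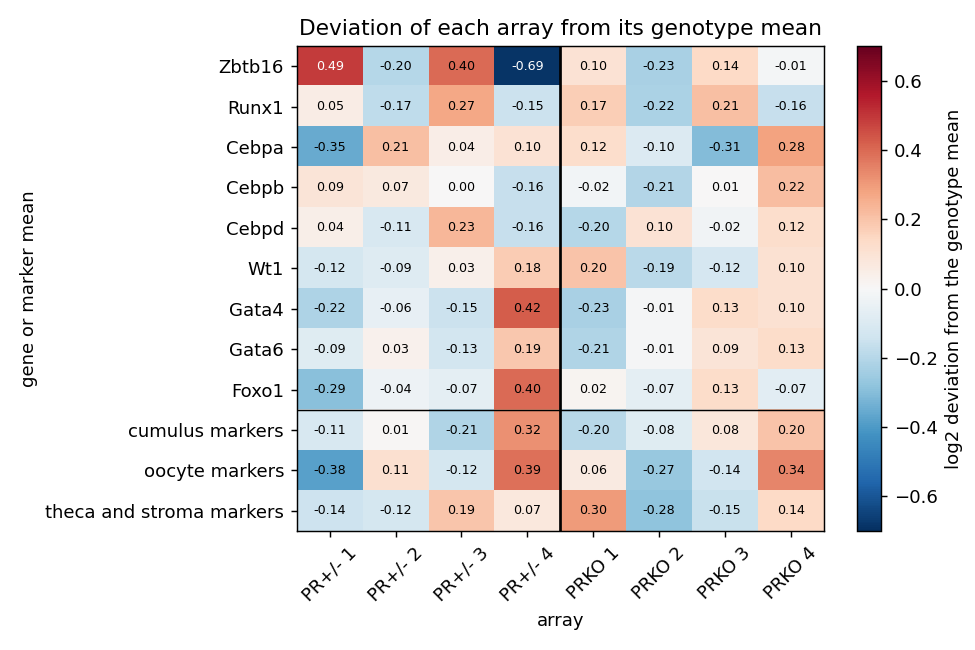
Deviation of each array (x axis) from the mean of its genotype, in log2 units (colour and printed value), for the 9 genes and 3 marker means (y axis). PR+/- replicate 4 is high for Gata4, Foxo1 and the cumulus and oocyte marker means and low for Zbtb16, at -0.69.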

How the data were processed

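RNA of 8 pools was labelled as biotinylated cRNA and hybridised to Affymetrix whole-transcript arrays, per the labels' protocols. The authors deposited 1 log2 signal for each probe set on each array, made with Partek, per the submitters' processing notes. How background, scaling and probe summaries were handled is not given in those notes, and the log base was read from the range of the values. The file holds 35556 probe sets. Tests covered the 21789 that name 1 gene, whatever their signal, and 1621 with several symbols and 12146 with none were not. A gene counted once, by its probe set with the highest mean, which gave 19938 genes.

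Differences are PRKO minus PR+/- from limma 3.58.1 (lmFit and eBayes) in R 4.3.3, with two-sided p-values and the threshold at a Benjamini-Hochberg adjusted p of 0.05 over those 21789 probe sets. No block was used. The fit was checked on simulated data with known changes and independent noise, which does not cover variation that genes share on an array. Motif counts, exact tests and figures came from Python 3.11.15 with pandas 2.3.3, scipy 1.17.1 and matplotlib 3.10.9. The number of arrays limits the precision.

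The members and lists were chosen with earlier results of these data known. Named genes were the 10 members, Pgr, the 5 profiles nearest to Zbtb16 and to Cebpb, from each list up to 4 genes past the threshold and 2 others by size, and the largest and smallest difference of each marker list. Runx3, Cbfb and genes near a member were named outside that rule, after their values were seen. Alternatives were a replicate block, other scalings, moderation and probe set choices, array weights, marker means as covariates, other thresholds and each array left out in turn.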

Additional observations from a re-analysis of the deposited data

How the results depend on the processing

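The count of 582 genes was 206 with all probe sets tested, 106 without moderation, 362 with the theca and stroma mean in the model, 932 at a threshold of 0.1, 277 if a fold of at least 1.5 was also asked, and 301 to 532 with each array left out in turn. The count of 3 members was 1 without moderation and 1 with a fold of at least 1.5, Zbtb16 in both. It was 2 with all probe sets tested and 2 to 3 with each array left out. With array centring, quantile normalization, an intensity trend in the moderation, averaged probe sets or a threshold of 0.1 it was 4. The count of 16 genes in the lists was 7 with all probe sets tested, 1 without moderation, 9 with a fold of at least 1.5, and 7 to 16 with each array left out. With the replicate number as a block the counts were 671 genes, 4 members and 13 list genes. Deviations of same-numbered arrays correlated at 0.121, 0.0801, 0.145 and 0.153 for numbers 1 to 4. Not every array correlated best with its own number, so the numbers were not taken as pairs. Deviations from a genotype mean cancel over its arrays, so correlations of both signs had to occur. Between genotypes, numbers 1 and 3 correlated positively with 1 and 3, and 2 and 4 with 2 and 4 (up to 0.2165). All other combinations were negative (down to -0.2107). This split was seen after the fact and does not show that the numbers carry shared variation. The main fit has no term for the split, and its source was not tested. Under the block Gata6 passed (0.0356) and the calls of Cdkn1b, Ptgfr and Sesn3 ended (0.0525, 0.0642 and 0.0509). Outside the lists, the calls of Wdfy2 and Adam26b ended too (limma adjusted p = 0.059 and 0.053). Of members and list genes named by rule that did not pass, 3 changed sign with 1 array left out: Cebpd ranged from -0.12 to 0.0115, Gata4 from -0.19 to 0.0213 and Akr1c18 from -0.11 to 0.58. Runx3 did so too, from -0.19 to 0.044. So did the markers with the smallest differences: with each array left out, Inhba ranged from -0.11 to 0.40, Dppa3 from -0.11 to 0.098, Cyp17a1 from -0.39 to 0.10, Cd3e from -0.034 to 0.074 and Krt7 from -0.017 to 0.064. With array centring Cd3e, Dppa3 and Krt7 were at -0.0126, -0.0148 and -0.0087, and with quantile normalization at -0.0116, -0.0188 and -0.0107. Dppa3 was at -0.0129 with array weights, -0.065 with probe sets averaged and -0.0867 with the theca and stroma mean, Krt7 at -0.0181 with that mean, and Cyp17a1 at 0.0188 with the oocyte mean. Without PR+/- replicate 4 Nr0b1 was at -0.21 and Sgk1 at 0.10, without PR+/- replicate 1 Atp6ap2 at 0.105, without PRKO replicate 1 Pdk4 at -0.29 and Htr3b at -0.083, and without PRKO replicate 2 Cd68 at 0.13. Zbtb16 ranged from -3.46 to -3.07 with each array left out, and it passed under every alternative run. Why results moved was not tested. Signals near or below the array medians, as of Cebpd, Wt1 and PRKO Zbtb16, limit what can be resolved.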
